A study of Mus musculus with 4 samples.

Results

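The genes described here are 9 members of the transforming growth factor beta (TGF-beta) system, taken from a list of gene names that was drawn up with earlier results of these data known: the ligand genes Tgfb1, Tgfb2 and Tgfb3, the receptor genes Tgfbr1, Tgfbr2 and Tgfbr3, and the secreted target genes Tgfbi, Ctgf and Cyr61. All 9 were found among the 22558 genes of the table, and all 9 were among the 14194 genes with a mean level of at least 1 FPKM (fragments per transcript length and library size). RNA was sequenced from the eyes of 6-week-old mice labelled Abca4-/-Rdh8-/-, a double knockout of a retinaldehyde flippase and a retinol dehydrogenase of photoreceptors that is used to study light damage to the retina. The groups were eyes without light exposure (the control) and eyes collected 3 h, 24 h and 7 days after light exposure, each labelled as eyes of 3 mice. The control carries the same genotype label, and no wild-type eye is among the 4 samples. Both targeted genes were above 0 in every sample: Abca4 was at 56.3 FPKM in unexposed eyes and at 40.6, 34.3 and 37.4 FPKM after 3 h, 24 h and 7 days, and Rdh8 lay between 10.5 FPKM (control) and 14.2 FPKM (3 h). The deposited value covers a whole gene and does not show whether the fragments come from the deleted parts, so these levels do not settle the genotype and the labels are used as given. One value per gene and group was deposited, so no difference below has a replicate check or a p-value. The strength and length of the exposure and the hour of collection were not stated in the labels.

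TGF-beta ligands are secreted in a latent form, held by their own propeptide and by latent TGF-beta binding proteins in the matrix, and are released there by integrins, thrombospondin and proteases. The free ligand binds the type II receptor (Tgfbr2), which activates the type I receptor (Tgfbr1), and this in turn phosphorylates SMAD proteins that enter the nucleus. Betaglycan (Tgfbr3) presents ligand, Tgfb2 above all, to the signalling pair. In the eye TGF-beta shapes the cornea, lens, ciliary body and outflow tissue, and the Tgfb2 product is the main isoform of the aqueous humour. Tgfbi encodes a secreted matrix protein abundant in the cornea. Ctgf and Cyr61, now also called Ccn2 and Ccn1, encode matricellular proteins of the CCN family, and are targets of the YAP and TEAD transcription factors as well as of TGF-beta.

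Whole-eye identity and depth were checked first. The 14 lens marker genes summed to between 87433 and 97835 FPKM, so lens RNA was part of every sample although the extraction text of the labels speaks of retinas. Y-linked transcripts were near absent except at 7 days (Ddx3y 6.59, Eif2s3y 6.80, Uty 3.68 and Kdm5d 1.38 FPKM, against no more than 0.0137 FPKM elsewhere), so sex and time cannot be told apart in any comparison of the 7-day eyes. An approximate depth came from olfactory receptor genes seen in a single sample, whose median value in that sample was taken to stand for 1 fragment. On that reading the counting error of the 9 genes lay between 1.61% (Ctgf at 7 days) and 9.75% (Tgfb1 at 3 h), which leaves out the spread between animals. The samples are bulk tissue, in which fewer cells of a type and less RNA per cell cannot be told apart.

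Promoter sequence was taken from RefSeq (GRCm38.p6, not the mm9 build of the deposited values) for the members whose levels are described below. The table held 7 windows of 300 bases, each reaching from 250 bases before the gene start to 50 after it, for 6 of the 9 genes. The genes with no window there were Tgfb3, Tgfbr3 and Ctgf. The windows were searched on both strands for the TEAD motif GGAATG, the SMAD motifs GTCTAGAC and CAGACA, the AP-1 motif TGANTCA and the CArG box of serum response factor. The share of all 32851 windows that held them was 14.7%, 0.213%, 21.0%, 7.81% and 1.63%. Cyr61 held 1 TEAD motif, on the strand opposite to the gene, where it reads CATTCC along the gene, and Tgfb2 held 1 CAGACA. The second of the windows of Tgfbr1 also held 1 CAGACA, and the motifs found did not overlap. The other 4 windows held none of these letters. The windows of Cyr61 and Tgfb2 are shown because these genes had matches and differ in the time of their highest level. They lie at chr3:145649936-145650235 and chr1:186705940-186706239, both on the minus strand, and are written in the direction of the gene with the matched letters in capitals.
Cyr61: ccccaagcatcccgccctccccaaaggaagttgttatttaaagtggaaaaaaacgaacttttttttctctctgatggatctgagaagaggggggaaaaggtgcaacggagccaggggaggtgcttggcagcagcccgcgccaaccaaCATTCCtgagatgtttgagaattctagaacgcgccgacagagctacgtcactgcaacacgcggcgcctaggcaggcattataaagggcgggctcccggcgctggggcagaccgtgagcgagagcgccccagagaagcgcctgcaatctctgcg
Tgfb2: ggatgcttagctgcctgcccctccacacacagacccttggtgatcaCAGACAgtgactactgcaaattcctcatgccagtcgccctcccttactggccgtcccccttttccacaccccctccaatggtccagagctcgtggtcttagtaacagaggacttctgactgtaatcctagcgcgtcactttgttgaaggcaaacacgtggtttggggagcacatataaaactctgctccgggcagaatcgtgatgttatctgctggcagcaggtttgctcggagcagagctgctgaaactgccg
Motifs as common as these in promoters say nothing of which factor acts on the gene.

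Across the system, Ctgf was the member that differed most between samples, followed by Tgfb3, and the other 7 genes spanned no more than 0.50 log2 units over the 4 samples. Changes are given as log2 of (FPKM + 1) in a light sample over (FPKM + 1) in the control, and folds as plain ratios of FPKM. A change of at least 1 log2 unit was counted as a clear difference and one of at least 0.5 as a smaller step. At 3 h, 1 of the 9 genes (Ctgf) was higher by at least 1 and none lower, against 0.550% and 0.240% of all 14194 genes. Ctgf fell short of 1, at 0.98, when samples were put on another scale described in the next paragraph. At the smaller step 1 gene (Ctgf) was higher and 1 (Tgfb3) lower, against 2.56% and 1.44%. At 24 h no member passed either step, against 0.747% higher and 0.359% lower by 1 among all genes, and 2.71% and 2.94% by 0.5. On the other scale just named, Tgfb3 at 24 h passed the smaller step, at -0.54 in place of -0.47. At 7 days none passed 1 (0.409% of all genes higher, 0.190% lower), and 1 member (Ctgf) was higher by at least 0.5 with none lower (1.19% and 0.986%).

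The median change of the 9 genes was 0.08 at 3 h, 0.09 at 24 h and 0.11 at 7 days, beside 0.02, 0.01 and 0.00 over all genes. The 3 h median turned to -0.05 under a tissue-depleted rescaling, which brings samples to the same sum after lens, surface epithelium, muscle and erythroid genes are set aside and which took the median of all genes at 3 h from 0.02 to -0.11. At 7 days all 9 members lay above the control, as did 50.7% of all genes, but Tgfb3, Tgfbr2 and Tgfbr3 turned negative under that rescaling, and Tgfbr2 and Tgfbr3 also when small RNA genes were set aside too. The members therefore did not move as a block: the secreted targets, the ligands and the receptors each held genes with different time courses.

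**Figure D1:**
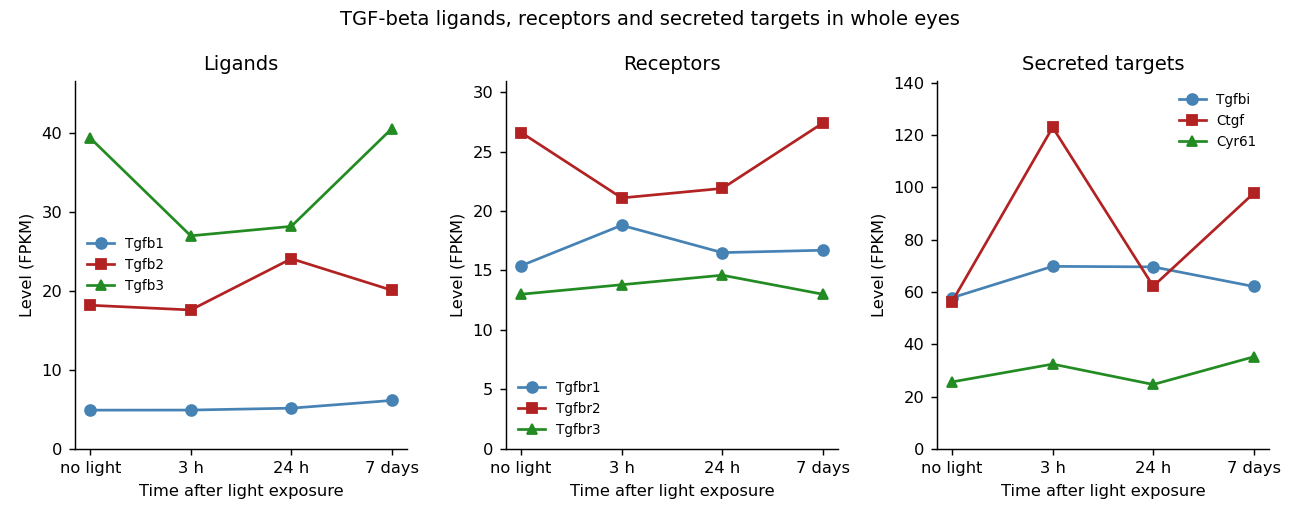
Level of each gene (FPKM, linear axis from 0) in the 4 samples, in panels for ligands, receptors and secreted targets; each point is 1 deposited value and the time axis is not to scale. Ctgf stood at 123 FPKM at 3 h and 97.8 at 7 days against 56.3 in the control, and Tgfb3 at 27.0 and 28.2 FPKM at 3 h and 24 h against 39.4.

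Among the ligands, Tgfb3 had the highest transcript level. Tgfb3, the isoform known for its part in palate fusion and scar-poor repair, was at 39.4 FPKM in unexposed eyes and at 27.0, 28.2 and 40.6 FPKM after 3 h, 24 h and 7 days. It was thus low in the early samples and back at the control level in the last. Its level at 3 h was 0.685 of the control (log2 change -0.53), and only 1.3% of all genes had a change as low or lower. At 24 h it was at 0.716 of the control (-0.47), and at 7 days at 1.03 (0.04, or -0.06 under the tissue-depleted rescaling). From 24 h to 7 days it was 1.44-fold higher. The sum of connective tissue markers was low in the same samples: the 14 fibroblast and stroma markers summed to 2359.6 FPKM in unexposed eyes and to 1728, 1676 and 2114 FPKM after 3 h, 24 h and 7 days, with 2, 2 and 4 of the 14 above the control. The markers differed among themselves. At 3 h Col1a1 was at 224 FPKM against 468 in the control, and Col1a2 at 256 against 474. Dcn was at 759.7 FPKM against 768, and Lum at 126 against 125. All 14 markers were above 0 in every sample, and their part in the level of Tgfb3 was not tested.

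Tgfb2 followed another course. It was at 18.2 FPKM in unexposed eyes and at 17.6, 24.1 and 20.1 FPKM after 3 h, 24 h and 7 days. The 24 h sample stood above the other samples, which lay close together. Its level there was 1.32-fold that of the control (log2 change 0.39, counting error 0.09) and 1.37-fold that at 3 h. That change stood at percentile 95.4 of all genes.

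Tgfb1, the isoform best known from immune cells and platelets, had the lowest level of all 9 genes in every sample. It was at 4.90 FPKM in unexposed eyes and at 4.91, 5.15 and 6.13 FPKM after 3 h, 24 h and 7 days. The first 3 values differed by less than their counting errors, and the 7-day value was the highest, at 1.25-fold the control (log2 change 0.27, counting error 0.17). The 12 microglia and macrophage markers summed to 116 FPKM in unexposed eyes and to 128, 121 and 258 FPKM after 3 h, 24 h and 7 days, with 11 of the 12 above the control at 7 days. All 12 were above 0 in every sample, and their part in the level of Tgfb1 was not tested. Sex differs along with time here too.

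These courses changed the balance of ligand transcripts. The ligands together were at 62.5 FPKM in unexposed eyes and at 49.5, 57.4 and 66.8 FPKM after 3 h, 24 h and 7 days. Tgfb3 made up 63.0% of that sum without light, and 54.5%, 49.1% and 60.7% of it at the successive times after light. The share of Tgfb2 was 29.1%, 35.5%, 42.0% and 30.1%, and that of Tgfb1 lay between 7.8% and 9.9%. Tgfb3 exceeded Tgfb2 by 2.16-fold in the control and by 1.17-fold at 24 h. Ratios of this kind within a sample do not depend on how samples were scaled to each other.

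**Figure D2:**
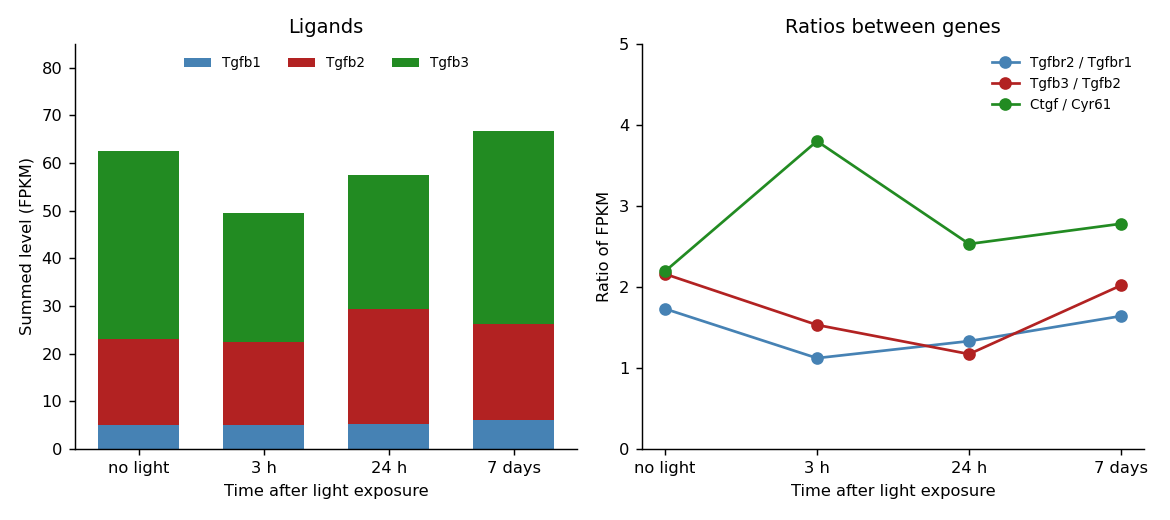
Left, levels of the ligand genes stacked to their sum (FPKM) in each sample; right, ratios of FPKM between pairs of genes within each sample; the time axis is not to scale. The ligand sum was lowest at 3 h (49.5 FPKM), Tgfb3 over Tgfb2 was lowest at 24 h (1.17) and Ctgf over Cyr61 was highest at 3 h (3.80).

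The receptor genes varied less. Tgfbr2, the ligand-binding type II receptor, was at 26.6 FPKM in unexposed eyes and at 21.1, 21.9 and 27.4 FPKM after 3 h, 24 h and 7 days. As with Tgfb3, the early samples were low and the 7-day sample close to the control. The log2 changes were -0.32, -0.27 and 0.04, the last of which was -0.06 and -0.00 under the tissue-depleted rescaling and under its form that sets small RNA genes aside too. The sum of endothelial markers was also lower in the early samples: the 10 genes summed to 119 FPKM in unexposed eyes and to 81.8, 105 and 117 FPKM after 3 h, 24 h and 7 days, with none, 1 and 4 above the control. The 1 gene above it at 24 h was Kdr, at 21.7, 12.9 and 31.0 FPKM in the control, 3 h and 24 h samples. All 10 were above 0 in every sample, and their part in the level of Tgfbr2 was not tested.

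Tgfbr1, the type I receptor kinase, was at 15.4 FPKM in unexposed eyes and at 18.8, 16.5 and 16.7 FPKM after 3 h, 24 h and 7 days. Here the 3 h sample was the highest, at 1.23-fold the control (log2 change 0.28, or 0.14 under the tissue-depleted rescaling). Tgfbr2 exceeded Tgfbr1 by 1.73-fold without light, and by 1.12-fold, 1.33-fold and 1.64-fold at the successive times, so the receptor genes were nearest to parity at 3 h. Tgfbr3, betaglycan, was the steadiest member, with 13.0, 13.8, 14.6 and 13.0 FPKM. Its log2 changes of 0.08, 0.16 and 0.01 stood beside counting errors of 0.12, 0.11 and 0.11, and the first and last turned to -0.05 and -0.08 under the tissue-depleted rescaling. The sum of the receptor genes stayed between 53.0 and 57.1 FPKM.

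Ctgf differed most from the control among the 9 genes. It was at 56.3 FPKM in unexposed eyes and at 123, 62.2 and 97.8 FPKM after 3 h, 24 h and 7 days. The 3 h and 7-day samples were high, while the 24 h sample was near the control. At 3 h it was 2.19-fold higher (log2 change 1.12, counting error 0.05), at percentile 99.5 of all genes, and the change was 0.98 under the tissue-depleted rescaling. At 24 h it was 1.11-fold (0.14), and at 7 days 1.74-fold higher (0.79, percentile 99.4). Between the light samples it was at 0.504 of its 3 h level at 24 h, a log2 change of -0.98, and then 1.57-fold higher at 7 days than at 24 h.

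Cyr61 was also higher in the 3 h and 7-day samples than in the control and 24 h samples, by less than Ctgf, but its highest level was at 7 days and its lowest at 24 h. It was at 25.6 FPKM in unexposed eyes and at 32.4, 24.6 and 35.2 FPKM after 3 h, 24 h and 7 days. The ratio to the control was 1.26 at 3 h and 1.37 at 7 days (log2 changes 0.33 and 0.44, counting errors 0.08 and 0.07), and 0.961 at 24 h. The ratio of Ctgf to Cyr61 was 2.19 without light, and 3.80, 2.53 and 2.78 at the successive times, so the light samples held relatively more Ctgf throughout.

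Tgfbi was at 57.8 FPKM in unexposed eyes and at 69.8, 69.6 and 62.1 FPKM after 3 h, 24 h and 7 days. The 3 h and 24 h samples were alike and above the other samples, at 1.21-fold and 1.20-fold the control, and the log2 changes of 0.27 and 0.26 lay within the range from the 5th to the 95th percentile of all genes. The change at 3 h was 0.13 under the tissue-depleted rescaling. The 12 surface epithelium markers summed to 3037 FPKM in unexposed eyes and to 3805, 3490.0 and 3692 FPKM after 3 h, 24 h and 7 days, with 12, 10 and 11 of them above the control. The 7 markers found of trabecular meshwork and corneal endothelium summed to 630.4, 995, 864 and 787 FPKM, with 4, 4 and 5 above it. These 7 markers did not move together, and their median log2 changes were 0.02, 0.02 and 0.27. At 3 h Angptl7 and Mgp were at 4.66-fold and 1.73-fold the control, and Myoc and Chi3l1 at 1.02-fold and 1.05-fold. Slc4a11, Col8a2 and Col8a1 were lower at 3 h, at 0.265, 0.725 and 0.888 of the control. No marker of either list was at 0 in any sample, and the part of either tissue in the level of Tgfbi was not tested.

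**Figure D3:**
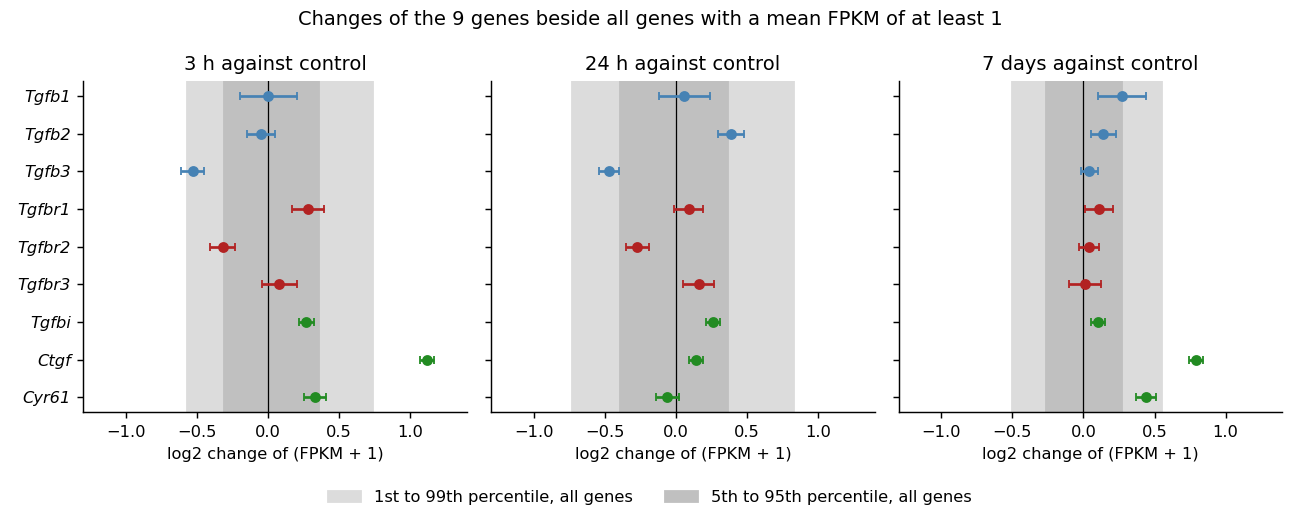
Log2 change of (FPKM + 1) against the control for each gene at 3 h, 24 h and 7 days; whiskers are the approximate counting error, and grey bands run from the 5th to the 95th and from the 1st to the 99th percentile of the 14194 genes. Ctgf lies outside the wider band at 3 h (1.12) and at 7 days (0.79), and Tgfb3 lies at -0.53 at 3 h.

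By level, Tgfbi and Ctgf led in the control and differed by less than their counting errors of 2.78% and 2.82%. Tgfb3, Tgfbr2 and Cyr61 followed, the last pair again within counting error of each other (26.6 and 25.6 FPKM), and then Tgfb2, Tgfbr1, Tgfbr3 and Tgfb1. Ctgf ranked first at 3 h and 7 days and Tgfbi first at 24 h. Tgfbr3 ranked eighth and Tgfb1 ninth in every sample. With 1 value per group no spread is known, so these orders carry counting error only.

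Successive light samples were compared as well. From 3 h to 24 h none of the 9 genes was higher by at least 0.5 log2 units and 1 (Ctgf) was lower, against 1.92% and 3.09% of all genes. From 24 h to 7 days 2 were higher (Ctgf at 0.64 and Tgfb3 at 0.51) and none lower, against 1.66% and 1.97%, while Cyr61 lay just under the step. Tgfb3 fell short of the step, at 0.48, under the tissue-depleted rescaling, and Cyr61 passed it, at 0.51, with a pseudocount of 0.1. From 3 h to 24 h Tgfb2 came to 0.50, at the step, under the tissue-depleted rescaling, in place of 0.43. The comparisons between light samples share the 24 h sample, so a deviation of that sample alone would move them in opposite directions.

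The genes with the time course most like a member's were sought for the members that spanned at least 0.5 log2 units, by the Euclidean distance between mean-centred log2 profiles over the 4 samples, among 932 genes with a mean of at least 5 FPKM and the same span. Only Ctgf and Tgfb3 reached that span. Nearest to Ctgf were Tcap, a protein of the striated muscle Z-disc (distance 0.32), Arr3, the cone arrestin (0.33), and Wisp2, another CCN family gene (0.37). Wisp2 was at 6.08 FPKM in unexposed eyes and at 10.3, 6.76 and 10.8 FPKM after 3 h, 24 h and 7 days, so Ctgf, Cyr61 and Wisp2 were all high at 3 h and 7 days. Arr3 was at 41.5, 82.1, 36.2 and 77.3 FPKM, and Tcap at 89.6, 198, 101 and 121 FPKM.

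Tgfb3 had closer neighbours. They were Tmem119 at a distance of 0.05, Kazald1 at 0.06 and Col11a1, a fibrillar collagen of cartilage and vitreous, at 0.08. Col11a1 was at 9.43 FPKM in unexposed eyes and at 5.81, 6.23 and 9.03 FPKM after 3 h, 24 h and 7 days. Tmem119, which marks microglia in the brain and is also made by bone-forming cells, was at 9.87, 6.72, 7.16 and 10.7 FPKM. Among the members themselves, Tgfb3 and Tgfbr2 lay 0.20 apart, and Tgfb3 and Ctgf, at 1.18, were the most distant pair. With 4 points many genes share a course, so likeness here is a description of these samples.

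**Figure D4:**
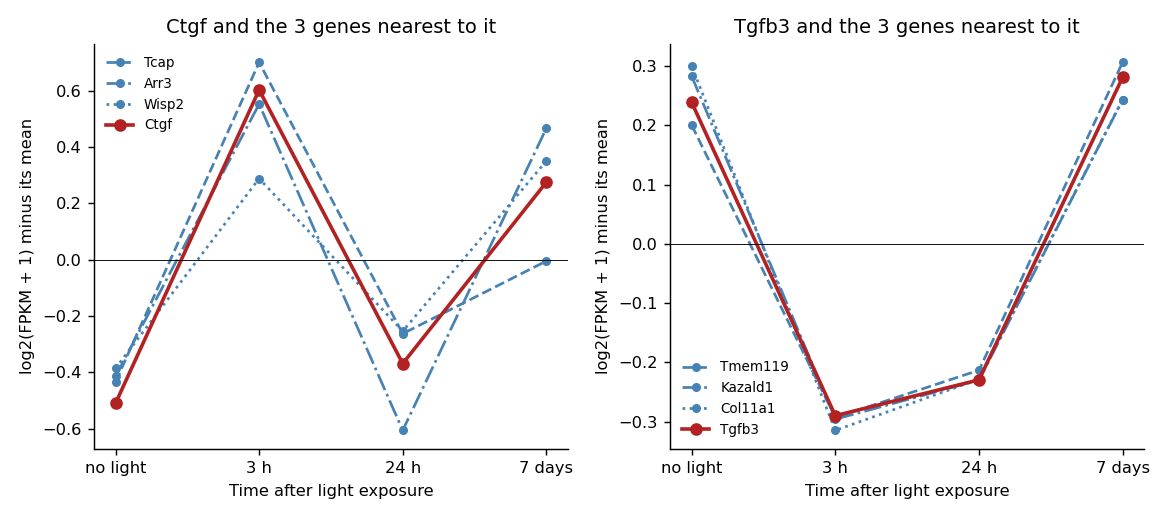
Mean-centred log2(FPKM + 1) of Ctgf (left) and Tgfb3 (right), each with its 3 nearest genes, in the 4 samples; the vertical scales differ and the time axis is not to scale. Ctgf and its neighbours peak at 3 h or 7 days with a dip at 24 h, at distances of 0.32 to 0.37, and Tgfb3 and its neighbours are low at 3 h and 24 h, at distances of 0.05 to 0.08.

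The rest of the pathway was read in 6 lists, of which 102 of 104 entries were in the table and 97 had a mean of at least 1 FPKM. Of the genes, 5 stood in more than 1 list, and the member Tgfb2 was also counted in the YAP and TEAD list. Genes of latency and activation were mostly low early: 12 of 14 lay below the control at 3 h and 13 of 14 at 24 h, with medians of -0.24 and -0.33, and 7 of 14 at 7 days, with a median of -0.01. Of all 14194 genes, 45.7%, 48.6% and 49.1% lay below the control at those times. None passed 1 log2 unit. Emilin1, an elastic fibre protein that holds back the processing of TGF-beta precursors, was at 11.2 FPKM in unexposed eyes and at 5.55, 7.75 and 9.69 FPKM after 3 h, 24 h and 7 days. Thbs1, thrombospondin, an activator of latent TGF-beta, was at 50.3, 44.8, 34.8 and 64.8 FPKM, lowest at 24 h and highest at 7 days. Itgb8, the integrin subunit that with alpha-v frees TGF-beta, was at 38.0, 32.9, 23.7 and 37.3 FPKM. The latent binding proteins, named after their values were seen, were below the control at 3 h and 24 h in all 4 genes, with Ltbp1 at 0.767 and Ltbp4 at 0.798 of the control at 3 h.

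Receptors and SMADs differed little in their medians. At 24 h 1 of 11 receptors (Acvr2b, 0.71) was higher by at least 0.5. Among 17 SMADs and inhibitors 1 (Smad6, -0.58) was lower by that step. Of all genes, 2.71% were higher and 2.94% lower by that step at 24 h. No gene of either list passed it at 3 h or 7 days. Other receptors and co-receptors had medians of 0.04, 0.08 and 0.01 (11 genes, none past 1), of which the first and last were -0.10 and -0.08 under the tissue-depleted rescaling. Acvr2b, an activin receptor, was at 6.54 FPKM in unexposed eyes and at 7.22, 11.3 and 6.58 FPKM after 3 h, 24 h and 7 days. Eng, the endoglin co-receptor of endothelium, was at 12.4, 9.89, 9.69 and 11.7 FPKM, and Cd109, a co-receptor that restrains TGF-beta signalling, at 4.76, 6.08, 5.10 and 5.56 FPKM. SMADs and their inhibitors had medians of 0.06, -0.03 and -0.02 (17 genes, none past 1), the first of which was -0.08 under the tissue-depleted rescaling. Smad6, an inhibitory SMAD, was at 9.73, 7.58, 6.17 and 10.3 FPKM. The feedback inhibitor Pmepa1 was at 12.5, 11.7, 10.3 and 14.2 FPKM, and Smad9 at 2.51, 2.06, 1.78 and 2.22 FPKM.

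Other CCN and matricellular genes had medians of -0.19, -0.35 and -0.06, with 12, 12 and 10 of 15 genes below the control, against the 45.7%, 48.6% and 49.1% of all genes, and none past 1. Wisp1, a CCN gene, was at 12.7 FPKM in unexposed eyes and at 6.91, 6.34 and 9.51 FPKM after 3 h, 24 h and 7 days, so it was below the control at each time after light. Postn, periostin, was at 31.6, 25.6, 18.1 and 26.7 FPKM. The CCN genes thus differed at 3 h, with Ctgf, Cyr61 and Wisp2 above the control and Wisp1 below it. Nov, at 8.09 FPKM in the control and 7.55 at 3 h, was close to the control (log2 change -0.09). Wisp2 was picked for its likeness to Ctgf, so its likeness adds nothing here.

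The list of TGF-beta response genes held the only pathway genes past 1 log2 unit. At 3 h, 2 of 23 were lower and none higher, against 0.240% and 0.550% of all genes. At 24 h 2 were higher and 3 lower, against 0.747% and 0.359%. Junb, an AP-1 factor, was at 36.6 FPKM in unexposed eyes and at 63.3, 113 and 43.7 FPKM after 3 h, 24 h and 7 days, and Timp1, a metalloproteinase inhibitor, at 2.96, 3.23, 11.5 and 4.91 FPKM, both highest at 24 h. The collagen genes Col1a1 (468, 224, 231 and 358 FPKM) and Col3a1 (166, 76.2, 60.8 and 98.9 FPKM) and Lox, a collagen crosslinking enzyme (13.0, 7.40, 5.84 and 9.80 FPKM), were low at 3 h and 24 h. The list therefore held genes with opposite courses, and its medians were -0.09, -0.17 and 0.05, the last of which was -0.05 under the tissue-depleted rescaling. Junb and Timp1 also answer to other pathways, and the collagen genes are among the fibroblast markers given above.

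The YAP and TEAD pathway also acts on Ctgf and Cyr61. Its genes had medians of -0.03 at 3 h, 0.02 at 24 h and 0.01 at 7 days over 17 genes, with none past 1. The first median was 0.01 at a mean of at least 5 FPKM, and the others were -0.05 and -0.07 under the tissue-depleted rescaling. The list mixes pathway components with target genes, so its medians do not describe the targets alone. At 3 h 10 of the 17 genes were below the control (45.7% of all genes) and 7 above it. F3 was the highest of them, at 1.33-fold the control, and Amotl1 the lowest, at 0.744. Ankrd1, whose mean was below 1 FPKM, was at 0.381, 0.916, 0.197 and 0.332 FPKM in the control, 3 h, 24 h and 7-day samples. Tead3 was at 7.11 FPKM in unexposed eyes and at 7.46, 12.7 and 8.00 FPKM after 3 h, 24 h and 7 days. Tead2 was at 6.04, 4.85, 7.39 and 7.46 FPKM. Both encode DNA-binding partners of YAP, and both were above the control at 24 h. The other genes of that family did not share this. Tead1 was at 4.21 FPKM at 24 h against 4.19 in the control, and Tead4, whose mean was below 1 FPKM, at 0.743 against 1.14.

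**Figure D5:**
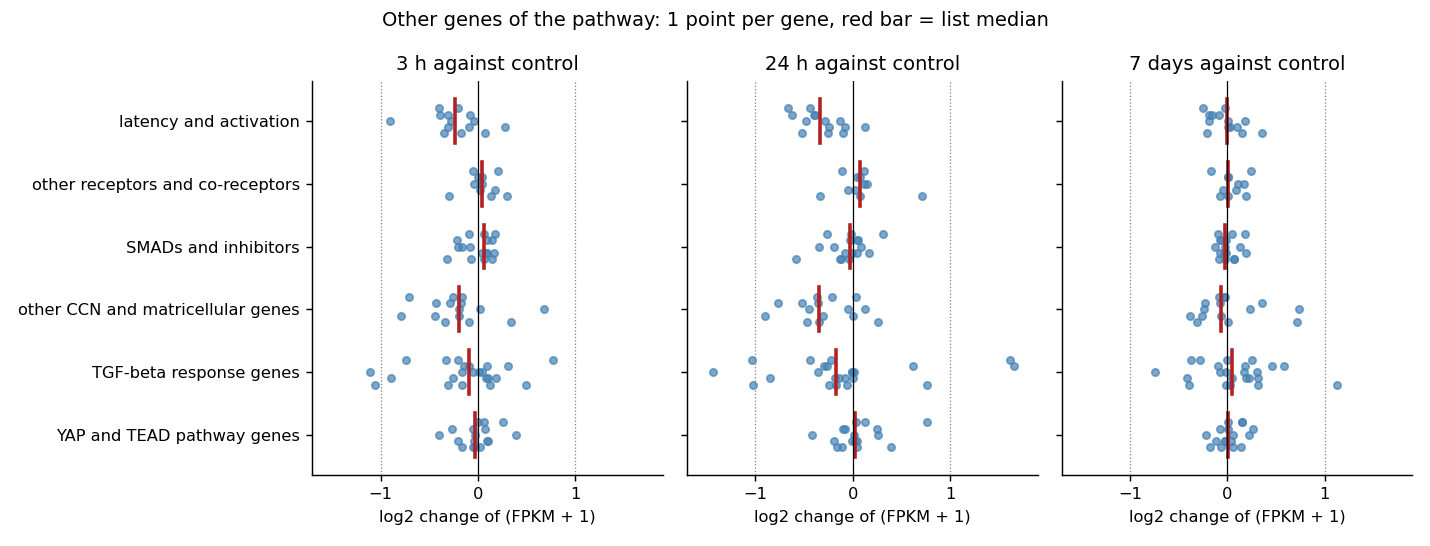
Log2 change of (FPKM + 1) against the control for each pathway gene with a mean of at least 1 FPKM, by list, at 3 h, 24 h and 7 days; red bars are list medians and dotted lines mark 1 log2 unit. The latency and activation list lies left of 0 at 3 h and 24 h (medians -0.24 and -0.33), and the response genes spread to both sides.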

How the data were processed

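Whole-eye RNA of 4 samples was sequenced, and the authors deposited 1 FPKM value per gene and sample. The build was mm9 and the tools named are bcl2fastq 1.8.3, TopHat2 and Cuffdiff 2.2.1, per the submitters' processing notes. Not given in the sources used here are annotation, library scaling, strand use and whether a value is a pool or a mean of 3 libraries. Column sums of FPKM ran from 626973 to 680305. FPKM values are relative, so a change in a few abundant transcripts moves all others.

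From these values log2 changes were computed with a pseudocount of 1, over the 14194 genes whose mean reached 1 FPKM, with Python 3.11.15, pandas 2.3.3 and numpy 2.4.6. This scale understates changes of low genes. Steps of 1 and 0.5 log2 units were used, and no test was run, since each group has 1 value. The code for these calculations was checked on simulated data with known changes. Depth was read from olfactory receptor genes (14 to 20 per sample); member lengths were not applied to it. Named were the 9 members, pathway genes past 1 log2 unit or otherwise the 3 with the largest span per list, and the nearest profiles; 1 gene of the response list is not reported here. Marker lists for tissues not described in the results (pericytes and smooth muscle, pigment epithelium, rods, Müller glia, skeletal muscle, erythroid cells) are in the closing part. Gene classes came from RefSeq and matched 99.0% of symbols. The members and lists were chosen with earlier results of these data known. Alternatives tried were no filter, a mean of at least 5, a pseudocount of 0.1, 3 rescalings (median ratio, tissue-depleted, and tissue-depleted with small RNA genes set aside) and a protein-coding background.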

Additional observations from a re-analysis of the deposited data

Results flagged for a closer look

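For several results the samples taken after light lay on opposite sides of the control at different times; none of these differences was tested. The lowest and highest log2 changes were -0.05 at 3 h and 0.39 at 24 h for Tgfb2, -0.53 at 3 h and 0.04 at 7 days for Tgfb3, -0.32 at 3 h and 0.04 at 7 days for Tgfbr2, and -0.06 at 24 h and 0.44 at 7 days for Cyr61. Among other pathway genes they were -0.52 at 24 h and 0.36 at 7 days for Thbs1, -0.58 and 0.07 at those times for Smad6, -0.26 and 0.18 for Pmepa1, and -0.27 at 3 h and 0.26 at 7 days for Tead2. List medians ran from -0.03 at 24 h to 0.06 at 3 h for SMADs and inhibitors, from -0.17 at 24 h to 0.05 at 7 days for TGF-beta response genes, and from -0.03 at 3 h to 0.02 at 24 h for YAP and TEAD pathway genes. Changes near 0, such as the -0.05 of Tgfb2 and the 0.04 of Tgfb3 and Tgfbr2, lie within their counting errors.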

How the results depend on the processing

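No paired analysis was possible because each group has 1 value. The only setting that took a member across the step of 1 was the tissue-depleted rescaling: Ctgf at 3 h was then at 0.98, and 0 of the 9 genes passed 1 log2 unit. At the step of 0.5 more settings mattered. Tgfb3 at 24 h passed it at -0.54 under the tissue-depleted rescaling and at -0.52 with small RNA genes set aside too. From 24 h to 7 days, Tgfb3 fell to 0.48 under the tissue-depleted rescaling, and Cyr61 reached 0.51 with a pseudocount of 0.1. Tgfb2 from 3 h to 24 h came to 0.50 under the tissue-depleted rescaling, in place of 0.43. Under the tissue-depleted rescaling the 3 h median was -0.05 for the 9 genes, -0.38 for latency and activation, -0.10 for other receptors, -0.08 for SMADs, -0.31 for CCN and matricellular genes, -0.22 for response genes and -0.14 for YAP and TEAD genes. Of the 45 changes of members over 5 comparisons, it moved 9 by 0.1 log2 units or more, all at 3 h, and the other settings moved none. Leaving small RNA genes out of that sum too, the shift of the members at 3 h was -0.04 in place of -0.14; that the difference rests on small RNA genes follows from how the sums were built. The count of all genes past 1 depended on the background: among protein-coding genes it was 37 higher and 15 lower at 3 h (78 and 34 over all), 60 and 29 at 24 h (106 and 51), and 24 and 7 at 7 days (58 and 27). With a pseudocount of 0.1 the lower counts were 54 at 3 h and 92 at 24 h, and at a mean of at least 5 FPKM 38 genes were higher at 7 days. Between light samples the protein-coding counts were 45 and 32 from 3 h to 24 h (73 and 62 over all) and 15 and 44 from 24 h to 7 days (42 and 73), and a pseudocount of 0.1 gave 99 lower and 73 higher. Depth limits Tgfb1 most, with counting errors of 6.45% to 9.75%.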

Other observations

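Other tissues of the eye are given as values. Pericyte and smooth muscle markers (9 genes) summed to 314, 288, 268 and 314 FPKM in the control and at 3 h, 24 h and 7 days, and pigment epithelium markers (7 genes) to 1302, 1501, 1316 and 1701 FPKM. Rod markers (9 genes) summed to 11537, 10074, 7267 and 7765 FPKM, Müller glia markers (7 genes) to 1417, 1462, 951 and 1598 FPKM, skeletal muscle markers (14 genes) to 2038, 2229, 1352 and 1775 FPKM, and the 8 erythroid markers found to 80.2, 90.9, 47.8 and 46.2 FPKM. Genes above the control at 3 h, 24 h and 7 days numbered 1, 1 and 3 for pericytes and smooth muscle and 5, 2 and 4 for pigment epithelium. They numbered 2, 1 and 0 for rods, 3, 2 and 7 for Müller glia and 4, 1 and 1 for erythroid genes. The erythroid gene Hbb-b2 was at 0 at 3 h and 24 h. A sum follows its most abundant genes: at 24 h Glul was at 395 FPKM against 769 in the control, and Slc1a3 at 45.4 against 32.6. Tcap, the gene nearest to Ctgf, is a muscle gene. Of the 14 muscle markers, 8 were above the control at 3 h and none at 24 h or 7 days. Their part in the levels of Tcap and Ctgf was not tested.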
